A study of Mus musculus with 23 samples.

Results

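The Grik libraries are RNA sequencing libraries of excitatory pyramidal cells from the mouse hippocampus, and they compare a conditional knockout (cKO) of Slm2 with wild type (WT). They were chosen by population name and genotype, which gave 8 of the 23 libraries of the series, 4 labelled cKO (replicates 1 to 4) and 4 labelled WT (replicates 3 to 6). The series compared gene expression and splicing between both genotypes in CA1 and CA3 excitatory cells and in somatostatin-positive (SST) inhibitory cells. All libraries were made from polyadenylated RNA, and the other populations, named CamK (excitatory pyramidal cells, 3 cKO and 4 WT) and SST (somatostatin-positive interneurons, 4 and 4), enter below only where an effect is compared with that in Grik. The labels give genotype as WT or cKO of SLM2 and state no age, sex or strain. The Cre driver, the exons removed and the way the cells were isolated are not given in the sources used here.

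Slm2 is the common name of Khdrbs3. Its protein SLM2, the protein Sam68 of Khdrbs1 and the protein SLM1 of Khdrbs2 form a subgroup of the STAR family, which binds U- and A-rich motifs in pre-mRNA through a KH domain and controls exon choice. In the brain these proteins are best known for the splicing of neurexin transcripts, which encode presynaptic adhesion molecules. The SLM proteins have also been described to act on each other's transcripts through splicing that leads to nonsense-mediated decay. Splicing itself was not analysed here, and every value below is a count over a whole gene.

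The 3 genes are close relatives. The most alike 90 bases of their coding sequences are shown because reads of the paralogs have to be told apart for the counts below to be read gene by gene. Each stretch runs over exons 2 and 3 of 9, with 1 intron inside, and was taken from the GENCODE M21 transcripts of GRCm38. Capitals mark the 60 bases that are identical in all 3 genes, and lower case marks the 30 that are not. The Khdrbs1 stretch lies at chr4:129727608-129730226 on the minus strand, that of Khdrbs2 at chr1:32244002-32333529 on the plus strand, and that of Khdrbs3 at chr15:68995145-69013421 on the plus strand.
Khdrbs1: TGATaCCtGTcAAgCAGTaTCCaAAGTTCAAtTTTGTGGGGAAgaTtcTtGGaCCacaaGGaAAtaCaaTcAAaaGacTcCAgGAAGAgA
Khdrbs2: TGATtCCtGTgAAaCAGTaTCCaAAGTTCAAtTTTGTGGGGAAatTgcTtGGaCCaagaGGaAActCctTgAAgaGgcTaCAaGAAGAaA
Khdrbs3: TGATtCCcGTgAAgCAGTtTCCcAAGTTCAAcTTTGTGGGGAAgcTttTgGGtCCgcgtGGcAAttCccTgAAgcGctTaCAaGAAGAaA
Over the aligned coding sequence, identity was 63.8% between Khdrbs1 and Khdrbs2, 61.9% between Khdrbs1 and Khdrbs3 and 67.4% between Khdrbs2 and Khdrbs3. The longest run of identical bases in any pair of their transcripts was 29 bases, between Khdrbs1 and Khdrbs2, and it was 15 and 16 bases for the pairs with Khdrbs3.

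Each Grik library held 90222449 to 92526691 reads assigned to genes, and values are counts per 1000000 of these reads after TMM scaling (CPM). Glutamatergic markers were abundant, with Camk2a, a synaptic kinase subunit, at 4604 ± 136 CPM in the libraries labelled cKO and 4609 ± 313 in WT (mean ± SD, n = 4 each, as in all values written this way below). Summed CPM of 10 CA3 pyramidal markers was 1363 to 1501 in the libraries labelled cKO and 1356 to 1465 in WT, and that of 10 CA1 markers was 620 to 649 and 564 to 693. Most of the CA1 sum came from 1 gene, Dkk3, at 493 to 526 and 448 to 560 CPM. GABAergic interneuron markers summed to 189 to 223 and 189 to 243, and the oligodendrocyte list to 1088 to 1525 and 949 to 1336. Kit alone, the most abundant gene of the interneuron list, stood at 112 to 127 and 106 to 122 CPM. Libraries of 1 group differed by far more than counting error (chi-square per degree of freedom 8.79 to 88.5 over 12 pairs). This tells them from repeat sequencing of the same library, and not from separate libraries of the same RNA. Along the first principal component (19.6% of the variance over the 8 libraries) the data set WT 3 and WT 4 (-44.6 and -34.4) opposite WT 6 (41.0), while the second (17.6%) set cKO 1 apart at -64.0, with the other 7 libraries at -2.61 to 20. Xist, the RNA of the inactive X chromosome, was above the Y-linked genes in 1 library labelled cKO (cKO 2) and 2 WT libraries (WT 3 and WT 4), so the sexes were not evenly split. The labels do not say that libraries came from separate animals, so p-values measure the spread between libraries. For edgeR that spread was estimated within the 6 groups of population and genotype, over all 23 libraries.

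Khdrbs3, the targeted gene, did not show lower counts in the libraries labelled cKO. The gene (ENSMUSG00000022332, chr15:68928420-69101211, plus strand) stood at 412, 439, 396 and 409 CPM in cKO 1 to 4 and at 327, 330, 347 and 338 CPM in WT 3 to 6. All 4 libraries labelled cKO lay above all 4 WT libraries, which goes against the direction of a loss of the transcript. The log2 fold change was 0.30 (SE 0.075), and the quasi-likelihood test of edgeR gave an adjusted p of 0.499 (Benjamini-Hochberg adjustment over 18823 genes). A count over the whole gene cannot show the loss of some of its exons while the rest is transcribed, so this value does not check the deletion. The libraries are therefore called by their labels throughout, and every direction below is that of the libraries labelled cKO against those labelled WT.

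The paralogs Khdrbs2 and Khdrbs1 rose, and they were the only genes past an adjusted p of 0.05 in edgeR's test, 2 of 18823 tested or 0.0106%. Khdrbs2 (ENSMUSG00000026058, chr1:32172714-32658568, plus strand) stood at 19.8, 21.4, 22.3 and 20.8 CPM in the libraries labelled cKO and at 5.21, 4.45, 3.88 and 5.24 CPM in WT. The groups were far apart, the lowest library labelled cKO standing above the highest WT library by several times the spread within either group. The mean was 21.1 ± 1.02 CPM against 4.69 ± 0.654, a 4.49-fold difference (log2 fold change 2.17, SE 0.13, edgeR adjusted p = 1.11e-10). The gene overlaps 8 annotated genes, 4 on each strand. No source used here states the strand setting of the counting, so some of its reads could belong to them.

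Khdrbs1 (ENSMUSG00000028790, chr4:129703164-129742303, minus strand) stood at 191, 170, 184 and 186 CPM in the libraries labelled cKO and at 137, 127, 108 and 126 CPM in WT. Again the groups did not overlap. The mean was 183 ± 9.17 CPM against 124 ± 12.1, a 1.47-fold difference (log2 fold change 0.56, SE 0.085, edgeR adjusted p = 0.00914). The size of the difference stayed between 0.49 and 0.61 on the log2 scale in 17 alternatives, but the call was lost when WT 4, WT 5, cKO 1, cKO 3 or cKO 4 was left out, with edgeR adjusted p-values of 0.0711, 0.195, 0.121, 0.0942 and 0.0762. Qk, which encodes the more distant STAR protein quaking, stood at 59.1 ± 8.91 and 56.6 ± 6.11 CPM (log2 fold change 0.063, edgeR adjusted p = 0.992). In bulk libraries such as these, fewer cells of a type and less RNA per cell cannot be told apart.

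**Figure D1:**
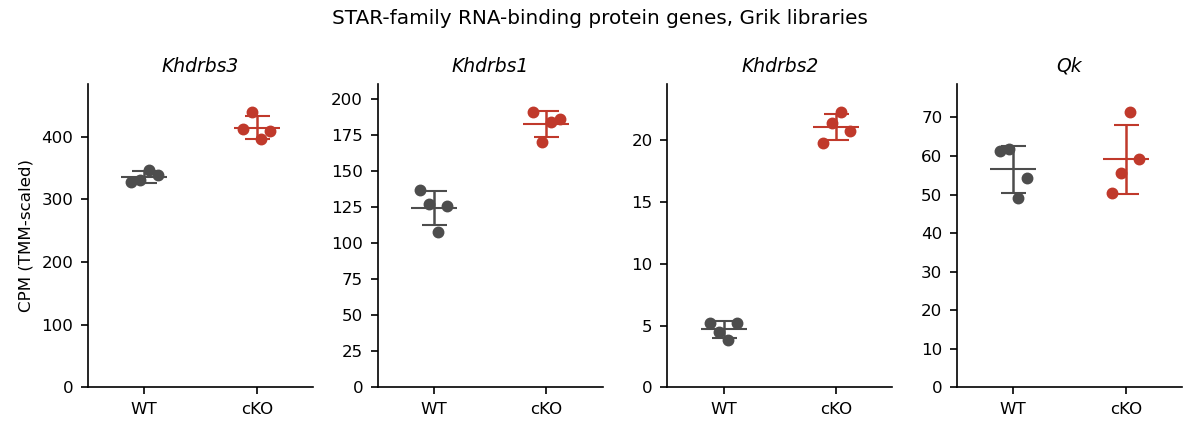
CPM of Khdrbs3, Khdrbs1, Khdrbs2 and Qk in each of the 4 WT (grey) and 4 cKO (red) Grik libraries, each gene on its own axis from 0; points are libraries, and bars are the mean ± SD. The groups do not overlap for Khdrbs3, Khdrbs1 and Khdrbs2, with Khdrbs2 at 19.8 to 22.3 CPM in the libraries labelled cKO and 3.88 to 5.24 in WT, while Qk overlaps.

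Levels can be set side by side between the paralogs only per length of exon. Khdrbs3 was the most abundant of the 3 by a wide margin in both groups, at 113 ± 4.92 CPM per kb of exon in the libraries labelled cKO and 91.6 ± 2.35 in WT. Khdrbs1 followed with 28.5 ± 1.43 and 19.3 ± 1.89 CPM per kb, and Khdrbs2 was the least abundant with 2.05 ± 0.0992 and 0.456 ± 0.0636. The order of the levels was thus the same in both groups, and neighbours in it were apart by much more than their spread. As a share of the level summed over the 3 genes, Khdrbs2 made up 1.43% ± 0.0922 in the libraries labelled cKO and 0.409% ± 0.0563 in WT, so even after its rise it was a small part of the family's polyadenylated RNA. Khdrbs1 made up 19.8% ± 1.36 and 17.4% ± 1.74, and Khdrbs3 78.7% ± 1.38 and 82.2% ± 1.79. The sum itself was 139 to 148 CPM per kb against 110 to 112.

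The same genes were set against their effects in CamK and SST cells. Khdrbs1 had a log2 fold change of 0.59 in CamK and 0.099 in SST, where its p was 0.258 unadjusted. The difference between the Grik and SST effects of Khdrbs1 was 0.46 (SE 0.12), with an unadjusted edgeR p of 8.63e-04 that did not pass after adjustment. Khdrbs2 had log2 fold changes of 1.52 in CamK and 0.58 in SST. Its effect in Grik exceeded that in SST by 1.59 on the log2 scale (SE 0.17, edgeR adjusted p = 4.39e-05), while the difference of 0.65 from CamK did not pass (SE 0.18, edgeR adjusted p = 0.570).

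Khdrbs3 differed in the direction of its effect. Its mean was lower in the libraries labelled cKO in CamK (278 ± 25.1 CPM, n = 3, against 373 ± 27.0, n = 4) and in SST (93.8 ± 10.5 against 130 ± 8.31, n = 4 each), with log2 fold changes of -0.42 and -0.47. The Grik effect lay above that of SST by 0.78 (SE 0.11, edgeR adjusted p = 0.00135) and above that of CamK by 0.73 (SE 0.11, edgeR adjusted p = 0.0154). Khdrbs3 and Khdrbs2 were the only genes past the threshold in the test against SST (2 of 18823, or 0.0106%), and Khdrbs3 the only gene in the test against CamK (0.00531%). Among the fits in which the call against CamK was lost were one with a sex-gene score (Xist minus Y-linked genes) as a covariate (0.68, edgeR adjusted p = 0.102) and one without cKO 2 (0.69, edgeR adjusted p = 0.0652).

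Beyond the paralogs, few genes stood apart between the genotypes. Unadjusted p-values under 0.05 numbered 919, or 4.88% of the 18823 genes, with 473 higher (2.51%) and 446 lower (2.37%) in the libraries labelled cKO. That count was 576 without WT 3, 1481 without WT 6, 1450 in a fit of the Grik libraries alone and 2270 with limma-voom, and the shares for gene lists below are those of the fit with 919. Libraries of the 2 genotypes did not overlap for 864 genes (4.59%), 457 of them with all libraries labelled cKO above WT (2.43%) and 407 below (2.16%). The median log2 fold change over all genes was 0.0035, with -0.0018 under relative log expression scaling, -0.0017 with DESeq2 and 0.0046 with limma-voom. Further tools called more genes from the same counts: DESeq2 called 14 (0.0744%), 9 higher (0.0478%) and 5 lower (0.0266%), and limma-voom called 37 (0.197%), 20 higher (0.106%) and 17 lower (0.0903%), with 12 called by both (0.0638%). Among these were Khdrbs1, Khdrbs2, Fgf18, Wnk4, Trib2, Tubb2b, Tatdn1, Cidea, Arrdc4, Cbfa2t3 and Csrnp1.

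**Figure D2:**
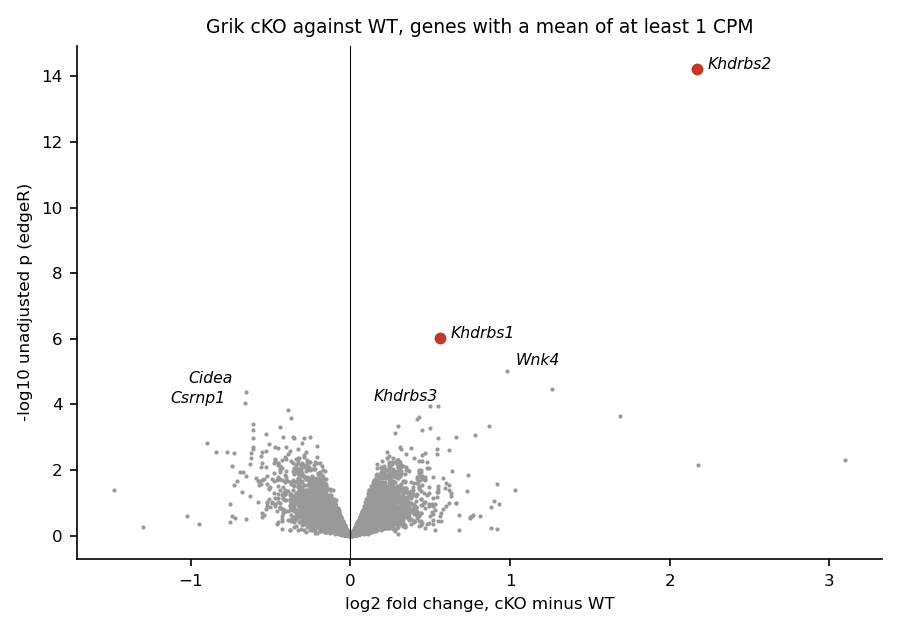
Each point is 1 of the 12681 genes with a mean of at least 1 CPM in the Grik libraries; the horizontal axis is the log2 fold change, cKO minus WT, and the vertical axis is -log10 of the unadjusted edgeR p. Red points are Khdrbs2 and Khdrbs1, the 2 genes past an adjusted p of 0.05, and Khdrbs2 lies far above all others at a log2 fold change of 2.17.

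Of the genes called by both further tools but not by edgeR, Wnk4 came nearest to the edgeR threshold. It encodes a kinase that controls chloride cotransporters and stood at 3.11, 2.79, 2.29 and 2.13 CPM in the libraries labelled cKO and 1.21, 1.27, 1.35 and 1.41 CPM in WT. The groups did not overlap, at a level of a few CPM (log2 fold change 0.98, SE 0.18, edgeR adjusted p = 0.0619). Its log2 fold change was -0.27 in CamK and 0.17 in SST, and the Grik value exceeded these by 1.25 and 0.80, with unadjusted edgeR p-values of 7.09e-05 and 0.00301 that did not pass after adjustment. Unadjusted p-values under 0.05 in these difference tests made up 6.50% of all genes against CamK and 3.86% against SST. Wnk4 overlaps 1 gene on the other strand.

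Fgf18, a fibroblast growth factor gene, stood at 2.35, 1.92, 1.59 and 1.59 CPM in the libraries labelled cKO and 0.699, 0.973, 1.04 and 1.35 CPM in WT (log2 fold change 0.87, edgeR adjusted p = 0.499). Every library labelled cKO was above every WT library, with WT 6 the closest. Arrdc4, an arrestin-domain gene, stood at 24.9, 23.5, 25.2 and 24.8 CPM against 14.8, 14.1, 18.9 and 19.6 (log2 fold change 0.55, edgeR adjusted p = 0.267). The 4 libraries labelled cKO lay close together for Arrdc4, and WT was split into a lower and a higher pair. Tatdn1, a DNase-domain gene, and Cbfa2t3, a transcriptional corepressor gene, had log2 fold changes of 0.50 and 0.43, with edgeR adjusted p-values of 0.267 and 0.365.

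On the other side, Cidea, a lipid droplet protein gene, stood at 14.8, 16.1, 13.0 and 14.1 CPM in the libraries labelled cKO and 21.9, 23.6, 24.4 and 21.1 CPM in WT. The gap between the groups was wider than the range of either (log2 fold change -0.65, SE 0.13, edgeR adjusted p = 0.155). Csrnp1, a nuclear protein gene of the activity-regulated list, stood at 11.3, 11.4, 11.5 and 10.5 CPM against 18.4, 19, 19.8 and 13.3 (log2 fold change -0.66, edgeR adjusted p = 0.267). Tubb2b, a neuronal beta-tubulin gene, stood at 123, 119, 111 and 113 CPM against 153, 162, 168 and 129 (log2 fold change -0.39, edgeR adjusted p = 0.301). Trib2, a pseudokinase gene, stood at 38.3, 39.7, 42.2 and 43.4 CPM against 70.6, 68.4, 67.4 and 42.6 (log2 fold change -0.61, edgeR adjusted p = 0.483). In Csrnp1, Tubb2b and Trib2 the WT 6 library stood nearest to the libraries labelled cKO, and in Trib2 it lay among them. Without WT 6, edgeR called 9 genes, 3 higher, Khdrbs2 and Khdrbs1 among them, and 6 lower, which were Trib2, Tubb2b, Csrnp1, Hibadh, Jph1 and Spry4.

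Ranked by unadjusted p among protein-coding genes with at least 1 CPM whose groups did not overlap, 11 of the 12 highest-ranking higher genes were Khdrbs2, Khdrbs1, Wnk4, Tatdn1, Arrdc4, Cbfa2t3, Nfya, Khdrbs3, Fgf18, Gadd45b and Lrrc20. Their log2 fold changes ran from 0.28 to 2.17. Nfya, a subunit of the CCAAT-binding factor, stood at 31.5 ± 3.25 CPM against 23.6 ± 0.900, and Lrrc20 at 74.9 ± 4.99 against 61.7 ± 4.65. The 12 lower genes were Cidea, Csrnp1, Tubb2b, Hibadh, Zfp46, Ankrd34c, Hdhd3, Snx25, Faf1, Rapgef5, Zfp608 and Etnk1, with log2 fold changes of -0.66 to -0.25. Etnk1, an ethanolamine kinase gene, was the most abundant of these at 405 ± 23.3 CPM against 499 ± 56.3, and Rapgef5, a Rap guanine nucleotide exchange factor gene, stood at 126 ± 5.21 against 161 ± 19.2. Hibadh, a valine breakdown enzyme gene, stood at 40.8 ± 1.48 CPM against 52.7 ± 6.48, and Faf1, a ubiquitin-binding protein gene, at 44.2 ± 0.687 against 54.0 ± 2.58. These genes were chosen by their Grik values, so their Grik differences are a description. In CamK, the direction was upward for 4 of the 11 higher genes and downward for 8 of the 12 lower ones; in SST the corresponding counts were 6 and 6. Of the higher genes, 3 were higher (Khdrbs1, Khdrbs2 and Tatdn1) and 1 lower (Khdrbs3) at an unadjusted p under 0.05 in CamK. In SST, 1 was higher (Khdrbs2) and 1 lower (Khdrbs3), so beyond the paralogs only Tatdn1 was among them. Of the lower genes, 0 were lower and 1 higher at that level in CamK, and 1 was lower and 0 higher in SST, where 7.05% and 5.85% of all genes had such a p in either direction.

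**Figure D3:**
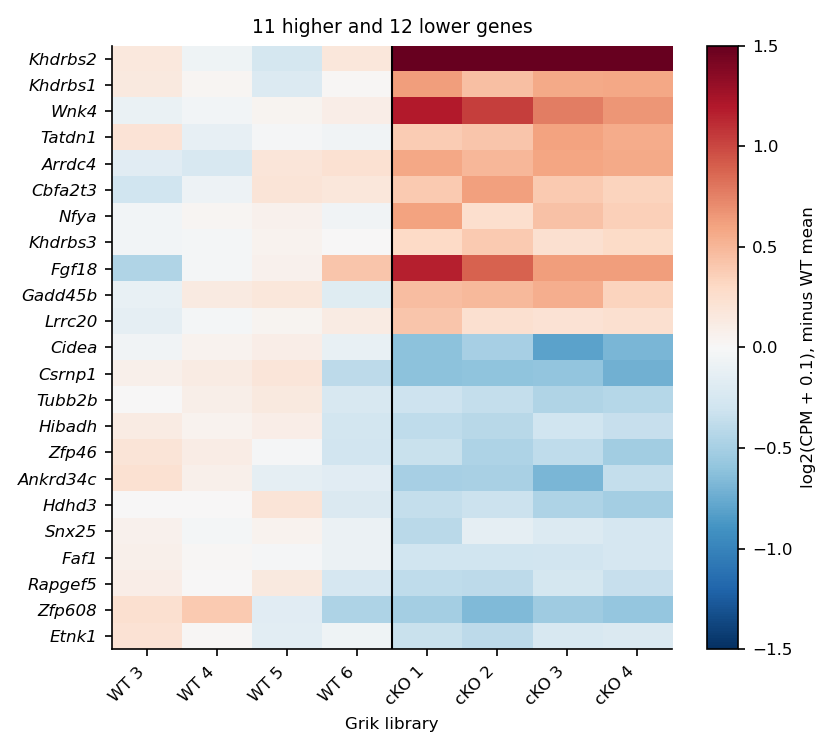
Heat map of the 11 higher and 12 lower genes (rows) in the 8 Grik libraries (columns, WT on the left of the line); colour is log2(CPM + 0.1) minus the gene's WT mean, with red above and blue below and the scale ending at 1.5. Khdrbs2 is deep red in all 4 libraries labelled cKO, and among the WT columns WT 6 is the bluest in many of the lower genes.

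The gene lists show how classes of genes with a known role stood. The neurexin class holds known splicing targets of SLM2. None of its 4 members had an unadjusted p under 0.05, where 4.88% of all genes did. In so short a list, that count does not set the class apart. Nrxn2 stood at 184 ± 5.31 CPM in the libraries labelled cKO and 181 ± 26.7 in WT, and Nrxn3 at 187 ± 2.53 and 191 ± 10. Stxbp5l, which encodes a tomosyn, a regulator of vesicle release, stood at 90.2 ± 11.0 and 97.6 ± 12.5 CPM. The log2 fold changes of these 3 genes, 0.021, -0.032 and -0.11, were all smaller in size than their SEs of 0.095, 0.10 and 0.17. These totals do not show which exons the transcripts carry.

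Among 24 tested neuronal splicing regulators, 1 (4.17%) had an unadjusted p under 0.05, where 4.88% of all genes did: Elavl1, an RNA-stabilising protein gene, at 110 ± 7.27 CPM against 124 ± 7.84 (log2 fold change -0.17, edgeR adjusted p = 0.992). Rbfox1, the most abundant of them, stood at 740 ± 31.3 CPM and 755 ± 47.9, and the median log2 fold change of the list was -0.0078. Of 30 SR proteins and hnRNPs, the general splicing factors that bind exons and introns, 24 were lower and 6 higher, where 49.0% and 50.8% of all genes were. The median was -0.065, and 5 members (16.7%) had an unadjusted p under 0.05, all lower, beside 2.37% of all genes that were lower at that level. These were Srsf5 and Srsf6 of the SR group, with log2 fold changes of -0.35 and -0.26, and Hnrnpd, Hnrnpll and Hnrnpa1, with -0.22, -0.21 and -0.16. None passed the adjusted threshold, the lowest adjusted p being 0.946, and in all 5 the libraries overlapped. Srsf5 stood at 89.8, 113, 94.6 and 92.0 CPM in the libraries labelled cKO and 142, 138, 111 and 106 CPM in WT, so WT 5 and WT 6 lay within the range of the libraries labelled cKO. Summed CPM of the list was 4723 to 4877 against 4672 to 5529.

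Of 15 nonsense-mediated decay and exon junction factors, 10 were higher and 5 lower, with a median of 0.083, where 50.8% and 49.0% of all genes were. Smg5, an adaptor of the decay machinery, was the 1 member (6.67%) with an unadjusted p under 0.05, beside 4.88% of all genes, at 80.2 ± 1.97 CPM against 71.3 ± 7.70 (log2 fold change 0.17). Upf1, the central helicase of the pathway, stood at 69.0 and 62.1 CPM, and Smg1, the kinase that acts on it, at 71.4 ± 7.33 and 81.8 ± 23.8.

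**Figure D4:**
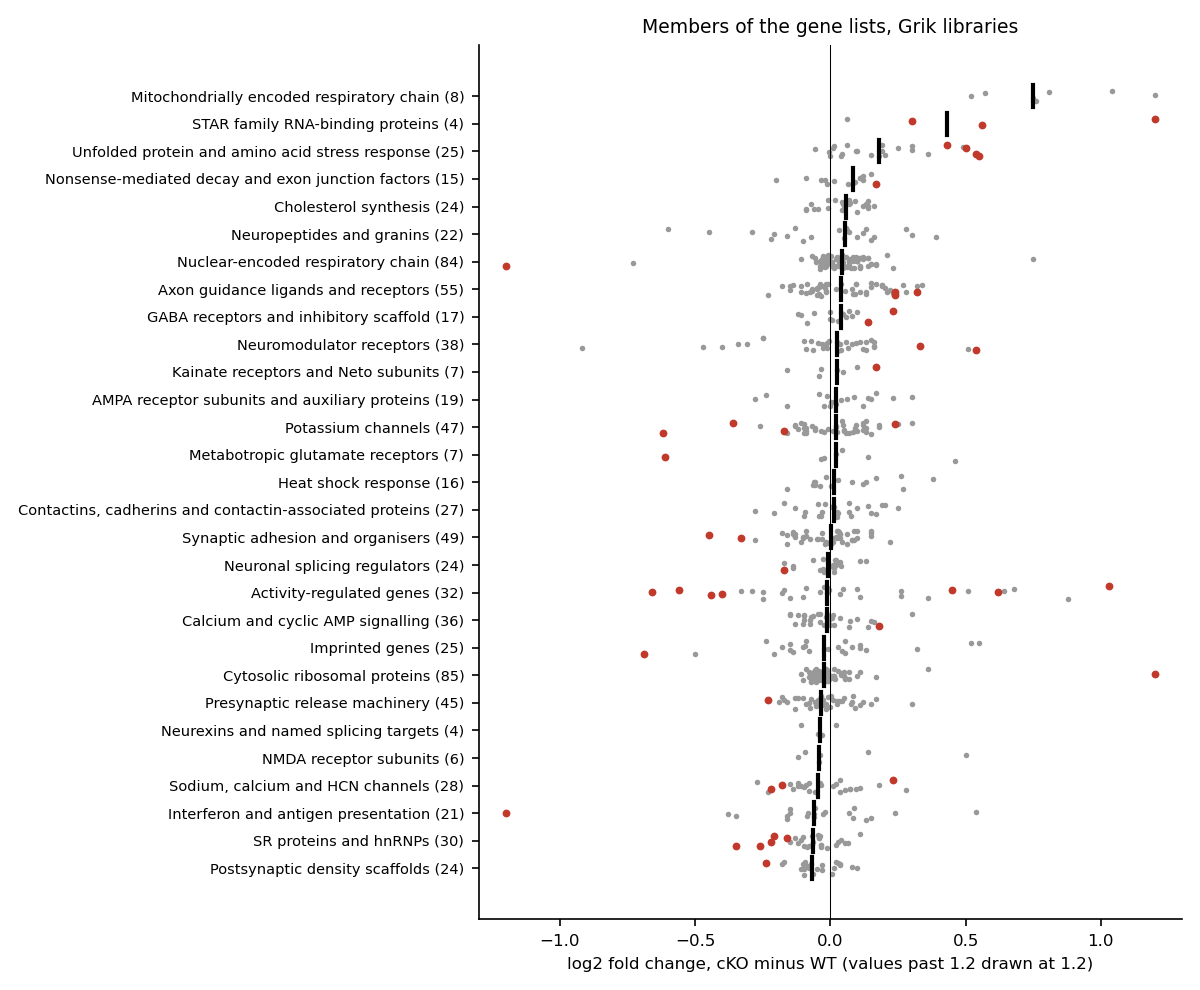
Log2 fold changes (cKO minus WT, horizontal axis, with values past 1.2 drawn at 1.2) of the members of 29 gene lists in the Grik libraries, 1 row per list with the number of tested genes in brackets; red points have an unadjusted p under 0.05, grey points do not, and black bars are list medians. Most medians lie near 0, that of the unfolded protein list is 0.18, that of the mitochondrially encoded list 0.75 and that of the STAR family 0.43.

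Of 49 synaptic adhesion and organiser genes, 26 were higher and 23 lower, and the median of 0.0035 was that of all genes. Unadjusted p-values were under 0.05 in 2 (4.08%), near the 4.88% of all genes. Flrt2, an adhesion partner of latrophilins, stood at 17.1, 18.3, 21.7 and 21.5 CPM in the libraries labelled cKO and 31.4, 28.0, 25.1 and 23.2 CPM in WT, with no overlap (log2 fold change -0.45, SE 0.15, edgeR adjusted p = 0.889). Slitrk2, a postsynaptic ligand of receptor phosphatases, stood at 11.8 ± 1.07 and 14.8 ± 2.23 CPM (log2 fold change -0.33, edgeR adjusted p = 0.890). Of 27 contactins, cadherins and relatives, none had an unadjusted p under 0.05.

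Among glutamate receptors, none of 19 AMPA receptor genes and none of 6 NMDA receptor genes tested had an unadjusted p under 0.05, where 4.88% of all genes did. The AMPA receptor subunit genes Gria1 and Gria2 stood at 747 ± 16.2 and 437 ± 9.23 CPM in the libraries labelled cKO and at 747 ± 52.2 and 419 ± 27.4 in WT. The NMDA receptor subunit genes Grin1 and Grin2a stood at 355 ± 21.9 and 197 ± 20.2 CPM against 321 ± 48.1 and 214 ± 16.9. Grik4, a kainate receptor subunit enriched in CA3, stood at 128 ± 5.20 CPM against 132 ± 10.7. Grik5, its relative, was the 1 of 7 kainate receptor and Neto genes (14.3%) with such a p, at 162 ± 8.42 CPM against 144 ± 17.6 (log2 fold change 0.17, edgeR adjusted p = 0.992). Grm8, a presynaptic metabotropic receptor, had the smallest p of all receptor lists: 1.61, 1.62, 2.16 and 1.89 CPM against 2.06, 3.18, 2.58 and 3.33 (log2 fold change -0.61, SE 0.15, edgeR adjusted p = 0.543). WT 3 lay within the range of the libraries labelled cKO.

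For inhibition and excitability, 2 of 17 GABA receptor and scaffold genes (11.8%) had an unadjusted p under 0.05, where 4.88% of all genes did, both higher: Gabra3, a receptor subunit, with a log2 fold change of 0.23, and Lhfpl4, a receptor partner, with 0.14. Of 47 potassium channel genes, 3 were lower and 1 higher at that level, or 8.51% in all. Kcna4, a subunit of fast-inactivating channels, stood at 19.8, 22.1, 27.7 and 25.1 CPM in the libraries labelled cKO and 42.4, 43.9, 31.7 and 27.7 CPM in WT, with groups that met but did not overlap (log2 fold change -0.62, SE 0.19, edgeR adjusted p = 0.889). WT 3 and WT 4 were the high libraries for Kcna4. Kcnk9 and Kcna1 had log2 fold changes of -0.36 and -0.17, and Kcnc4 had 0.24. Of 28 sodium, calcium and HCN channel genes, 1 was higher and 2 lower at that level (10.7% in all), with Scn3a at -0.22 and Cacnb2 at -0.18, and the list median was -0.047.

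The presynaptic release, postsynaptic density and calcium and cyclic AMP lists each held 1 gene with an unadjusted p under 0.05, or 2.22%, 4.17% and 2.78% of their members, below the 4.88% of all genes. Of 45 presynaptic release genes it was Doc2a, a calcium sensor for spontaneous release, at 24.0 ± 1.21 CPM against 28.1 ± 1.98 (log2 fold change -0.23, edgeR adjusted p = 0.893). Cnksr2, a scaffold, was the 1 of 24 postsynaptic density genes, at 583 ± 52.7 CPM against 690 ± 65.1 (log2 fold change -0.24). The library ranges of both genes came close without overlap. Camkk1, a kinase that activates other calmodulin-dependent kinases, was the 1 of 36 calcium and cyclic AMP signalling genes, at 457 ± 20.8 CPM against 403 ± 26.2 (log2 fold change 0.18). The postsynaptic density list had a median of -0.067, with 16 lower and 8 higher, and Dlg4, which encodes PSD-95, stood at 1005 ± 50.3 CPM against 940 ± 64.6.

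Activity-regulated genes, which neurons transcribe in response to synaptic input, had the largest share of unadjusted p-values under 0.05 among the lists with 10 or more genes: 7 of 32, or 21.9%, beside 4.88% of all genes. They went in both directions, with 3 higher and 4 lower, and none passed the adjusted threshold. Nr4a2, an orphan nuclear receptor, stood at 65.5, 66.6, 83.3 and 71.9 CPM in the libraries labelled cKO and 47.5, 52.1, 38.8 and 49.2 CPM in WT, with no overlap (log2 fold change 0.62, SE 0.18, edgeR adjusted p = 0.797). Gadd45b, a stress and DNA demethylation protein gene, stood at 19.1 ± 1.18 CPM against 14 ± 1.71 (log2 fold change 0.45, edgeR adjusted p = 0.543). Npas4, a neuron-specific transcription factor, stood at 5.29, 10, 13.8 and 10.9 CPM against 3.98, 4.55, 3.43 and 7.65, so its libraries overlapped (log2 fold change 1.03, SE 0.47, edgeR adjusted p = 0.992).

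The 4 lower ones were Csrnp1, Dusp6, Dusp1 and Nptx2. Dusp6 and Dusp1, phosphatases that switch off MAP kinases, had log2 fold changes of -0.56 and -0.44. Dusp6 stood at 62.5, 53.3, 55.1 and 63.7 CPM against 102, 104, 79.5 and 60.6, again with WT 6 among the libraries labelled cKO. Nptx2, a secreted pentraxin that clusters AMPA receptors, stood at 23 ± 2.51 CPM against 30.4 ± 3.67 (log2 fold change -0.40, edgeR adjusted p = 0.957). All libraries labelled cKO lay above WT in 6 of the 32 genes and below in 2, where 2.43% and 2.16% of all genes did. The 6 were Fos, Fosb, Fosl2, Egr4, Nr4a2 and Gadd45b, and the first 4 are named after their values were seen. Fos and Fosb, subunits of the AP-1 factor, stood at 19.5 ± 2.02 and 24.3 ± 2.33 CPM against 12.2 ± 2.01 and 13.3 ± 2.69. Their log2 fold changes were 0.68 and 0.88 (SE 0.54 and 0.55), with unadjusted edgeR p-values of 0.228 and 0.129. These SEs rest on the spread over all 23 libraries of the series, and not on that of the Grik libraries alone. Arc, Egr1 and Bdnf, other classical members, stood at 91.4 ± 12, 137 ± 0.932 and 81.6 ± 2.20 CPM against 103 ± 23.7, 147 ± 39.3 and 90.8 ± 13.1.

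Genes of the unfolded protein and amino acid stress response showed the most one-sided distribution of directions among the lists with 20 or more genes. Of 25 genes, 22 were higher and 3 lower in the libraries labelled cKO, where 50.8% of all genes were higher, and the list median was 0.18 beside 0.0035. Unadjusted p-values were under 0.05 in 4 (16.0%), all higher, beside 2.51% of all genes that were higher at that level, and none passed the adjusted threshold. Ddit3, the transcription factor CHOP, stood at 13.3, 12.3, 8.69 and 9.79 CPM against 7.13, 7.22, 7.61 and 9.23 (log2 fold change 0.50, SE 0.12, edgeR adjusted p = 0.508). Pdia4, a disulfide isomerase of the endoplasmic reticulum, stood at 41.1, 37.5, 32.6 and 35.3 CPM against 21.2, 22.7, 24.0 and 32.9 (log2 fold change 0.54, SE 0.16, edgeR adjusted p = 0.797). In both genes cKO 1 was the highest library and WT 6 the highest WT library, and the groups overlapped at that point.

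The chaperone partner Sdf2l1 had a log2 fold change of 0.55 and Creld2, another disulfide isomerase gene, 0.43. Hspa5, the main chaperone of the endoplasmic reticulum, and Manf, a secreted stress protein, had 0.36 and 0.30, with unadjusted p-values of 0.0894 and 0.0516. Atf4, a transcription factor of the amino acid response, stood at 103 CPM in the libraries labelled cKO and 102 in WT, and Asns, the asparagine synthetase gene, at 182 and 189. Ddit3 in CamK had a log2 fold change of -0.28, and the difference of 0.78 from Grik had an edgeR adjusted p of 0.538. The list summed to 2060 to 2340 CPM against 1817 to 2183. None of 16 cytosolic heat shock genes had an unadjusted p under 0.05, where 4.88% of all genes did. The median log2 fold change of that list was 0.014.

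**Figure D5:**
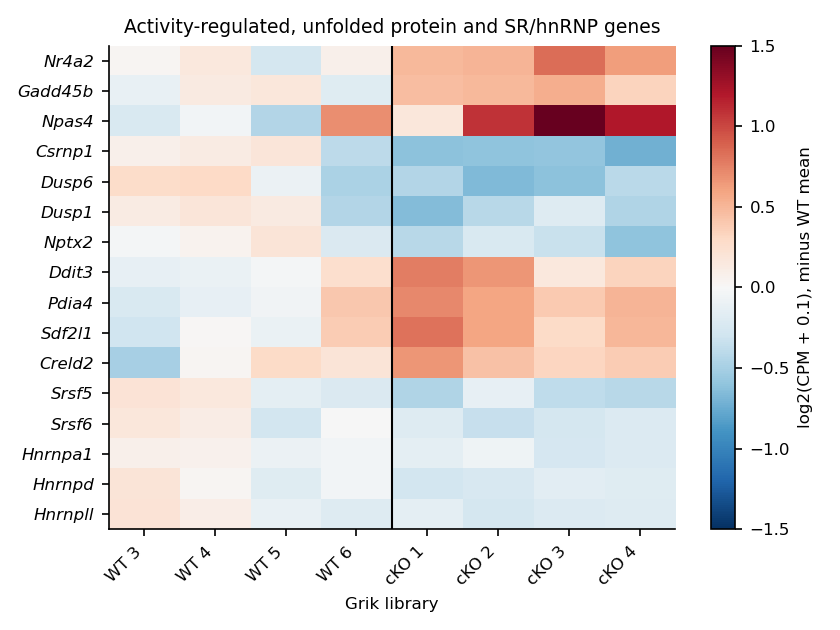
Heat map of 16 activity-regulated, unfolded protein and SR or hnRNP genes with an unadjusted p under 0.05 (rows) in the 8 Grik libraries (columns, WT on the left of the line); colour is log2(CPM + 0.1) minus the gene's WT mean, with red above and blue below. The stress genes Ddit3, Pdia4, Sdf2l1 and Creld2 are reddest in cKO 1, and Dusp6, Dusp1 and Csrnp1 are bluer in WT 6 than in the other WT libraries.

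None of 22 neuropeptide genes and none of 24 cholesterol synthesis genes had an unadjusted p under 0.05, where 4.88% of all genes did. Of 38 neuromodulator receptor genes, 2 did (5.26%), both higher: Oprd1, the delta opioid receptor, at 1.43 ± 0.412 CPM against 0.986 ± 0.106, and Chrm4, a muscarinic receptor, at 5.67 ± 0.771 against 4.51 ± 1.24. Of 55 axon guidance genes, 3 did (5.45%), all higher: Ephb2 and Efnb1, an ephrin receptor and an ephrin, with log2 fold changes of 0.24 and 0.32, and Sema4a, a semaphorin, with 0.24. Of 25 imprinted genes, 11 were higher and 14 lower, with a median of -0.022 (-0.095 without cKO 4), and 1 had an unadjusted p under 0.05. This was Ndn, which encodes necdin, at 241, 204, 231 and 222 CPM against 229, 385, 402 and 435 (log2 fold change -0.69, SE 0.25, edgeR adjusted p = 0.916). WT 3 lay among the libraries labelled cKO for Ndn, while the other 3 WT libraries lay well above them.

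Housekeeping classes had small median differences spread over many members. Of 85 ribosomal protein genes, 63 were lower and 22 higher, with a median of -0.024, and of 84 nuclear-encoded respiratory chain genes, 60 were higher and 24 lower, with a median of 0.044, where 50.8% of all genes were higher and 49.0% lower. Direction also moved with gene span: of the 3061 protein-coding genes with the shortest spans, 1843 were higher and 1216 lower, with a median of 0.035, and the 3061 with the longest spans had a median of -0.030. The part of span in these lists was not tested. The 1 member of each list with an unadjusted p under 0.05 (1.18% and 1.19%), Rpl39l and Cox8b, was below 1 CPM in every library, as was Usp18, the 1 such member of 21 interferon and antigen presentation genes (4.76%), beside 4.88% of all genes. All 8 tested mitochondrially encoded genes were higher, with a median of 0.75 and none with an unadjusted p under 0.05. The most abundant, mt-Co1, stood at 28.1 ± 6.93 CPM against 18.9 ± 8.37. All 13 genes of that list, tested or not, summed to 41.8 to 74.7 CPM against 21.2 to 62.0, so the groups overlapped.

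Markers of other cells overlapped between the groups in summed level. Of 10 oligodendrocyte markers all 10 were higher in the libraries labelled cKO, with a median of 0.24, and of 6 oligodendrocyte precursor markers all 6 were, with a median of 0.32, but no member of either list had an unadjusted p under 0.05. Astrocyte markers summed to 69.4 to 100 CPM against 67.7 to 82.2, microglial markers to 3.91 to 21.7 against 4.67 to 22.6, and endothelial and mural markers to 32.5 to 48.5 against 28.5 to 40.5. CA2 markers summed to 255 to 290 against 235 to 281, dentate granule and mossy cell markers to 496 to 553 against 515 to 567, and ependymal and choroid plexus markers to 21.5 to 66.5 against 21.5 to 117. Single genes held a large part of some sums. Rgs5 of the endothelial and mural list stood at 28.8 to 35.6 against 24.1 to 33.4 CPM. Calb2 of the dentate list stood at 280 to 335 against 311 to 347, and Ttr of the ependymal list at 0.919 to 42.1 against 0.290 to 85.1. Where 4.88% of all genes had an unadjusted p under 0.05, 1 of 10 markers in each of the CA1 and dentate lists did, both higher, and none in the other cell type lists: Gpr161 (log2 fold change 0.27) and Rasl10a (0.48). No marker of these lists was at 0 in all 8 libraries. The part of glial RNA in the differences of single neuronal genes was not tested gene by gene. With a score of the astrocyte, oligodendrocyte, precursor, microglia and endothelial lists as a covariate, Khdrbs2 and Khdrbs1 kept log2 fold changes of 2.20 and 0.58, and the same 2 genes were called.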

How the data were processed

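The authors deposited 1 table of raw read counts per gene, made with Trimmomatic and STAR on GRCm38, per the submitters' processing notes, which give no versions. The strand setting is not given in the sources used here. Reads in rows that name no gene, 13.5 to 15% of the reads in each Grik library, were left out. Of 45706 gene IDs, 45143 matched GENCODE M21. All 23 libraries were fitted together in 6 groups by edgeR 4.0.16 in R 4.3.3 (filterByExpr, TMM scaling, robust quasi-likelihood test, 17 residual degrees of freedom), with Benjamini-Hochberg adjustment over 18823 genes and a threshold of 0.05. CPM values were computed here per 1000000 TMM-scaled reads. Their SD covers the spread between libraries, beside which counting error is small for all but genes of low counts. DESeq2 1.42.0, limma 3.58.1 (voom with quality weights), other scaling and filters, a fit of Grik alone, covariates, a replicate block and leaving out each library were alternatives. The function was tested on simulated counts.

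Named genes were the STAR family, genes called by edgeR or by both other tools, the 12 higher and 12 lower genes of smallest p without overlap, list members with an unadjusted p under 0.05 or the highest level, Nrxn2, Nrxn3 and Stxbp5l, and sex-linked genes; other list members were added for their known role, after their values were seen. A few genes under the rule are not reported here. The comparison, lists and rule were chosen with earlier results of these data known. Lists are described by counts and medians, with no test.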

Additional observations from a re-analysis of the deposited data

Results flagged for a closer look

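In 9 of the 222 groups of 4 libraries examined, 1 library stood far from the other 3; chance alone gives about 1 in 20, or 11.1. Among the libraries labelled cKO, Lrrc20 was at 82.4 CPM in cKO 1 (others 71.6 to 72.9), Scn3a at 22.8 in cKO 2 (24.6 to 24.7), the summed STAR family at 686 in cKO 2 (674 to 675) and the summed CA1 markers at 620 (644 to 649). Among WT libraries, Trib2 was at 42.6 CPM in WT 6 (others 67.4 to 70.6), Dusp1 at 7.92 in WT 6 (11.7 to 12.2) and Chrm4 at 6.36 in WT 5 (3.82 to 3.97). Summed contactins and cadherins were at 2090 CPM in 1 WT library (1878 to 1899) and summed endothelial and mural markers at 28.5 in 1 WT library (38.8 to 40.5).

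Effects differed between populations in 3 tests. The Khdrbs3 effect in Grik minus that in CamK was 0.73 (SE 0.11, edgeR adjusted p = 0.0154), and minus that in SST 0.78 (SE 0.11, edgeR adjusted p = 0.00135). The Khdrbs2 effect in Grik minus that in SST was 1.59 (SE 0.17, edgeR adjusted p = 4.39e-05).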

How the results depend on the processing

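Khdrbs2 was called in 17 of 17 alternatives, with log2 fold changes of 2.08 to 2.23. Khdrbs1 was called in 12 of 17, with 0.49 to 0.61 when each library was left out in turn; the lost calls are those without WT 4, WT 5, cKO 1, cKO 3 or cKO 4. Khdrbs3 passed in limma-voom (0.30, adjusted p = 0.0158) and not in the other alternatives. The number of genes called in Grik was 14 with DESeq2, 37 with limma-voom, 5 in a fit of the Grik libraries alone (4 higher, 1 lower) and 1 to 9 when each library was left out, 9 being without WT 6. For the Grik effect minus the CamK effect, DESeq2 called 2 genes, and edgeR called 0 with the sex-gene score (793 genes at an unadjusted p under 0.05) and 0 to 1 with each library left out, 0 being without cKO 2 (961 genes); Khdrbs3 was then 0.68 with the score and 0.69 without cKO 2. For Grik minus SST, DESeq2 called 4. The replicate block was also fitted. Only 2 replicate numbers occur in both Grik groups, and their deviations correlated at -0.043 and -0.091, so the numbers do not pair the libraries. Under the block, 2 genes were called in Grik, both shared with the fit without it (1399 genes at an unadjusted p under 0.05), and 0 for Grik minus CamK (1853 genes at an unadjusted p under 0.05), where Khdrbs3 was 0.71 with an edgeR adjusted p of 0.118. Uncalled log2 fold changes that changed sign with each library left out were those of Qk (-0.048 to 0.13, below 0 without WT 5 at -0.0052 and without cKO 3), Nrxn2 (-0.061 to 0.11, below 0 without WT 3) and Xist (-6.67 to 0.92, above 0 without WT 3). With the sex-gene score, signs also changed for Xist (0.12) and Eif2s3y (-0.22); the cause was not tested. Over all pairs of a gene list and an alternative, the list median stayed within its spread in 707 and moved in 24. Under the block the median of the nonsense-mediated decay list went from 0.083 to 0.0095, that of the NMDA receptor list from -0.041 to 0.12, that of the heat shock list from 0.014 to -0.057 and that of the imprinted list from -0.022 to 0.13. Precision was limited by 4 libraries a group with a biological coefficient of variation of 16.3%, beside which counting error is small for all but genes of low counts.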
